A study of Mus musculus with 16 samples.

Results

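The 39 genes described here carry out or control glucose production, glycolysis and glycogen metabolism in mouse liver. They were chosen by name among 22612 genes with a deposited value, and all 39 were found under their symbols. Liver RNA was sequenced from male C57BL/6 mice bought at 7 weeks of age, acclimated for 1 week and then kept on 1 of 4 diets for 16 weeks. The chow group received a diet with 11% of its energy from fat, and the high-fat group a diet with 58%. In the chow-alternating group, 2 weeks of high-fat diet and 2 weeks of chow followed each other. The ketogenic-alternating mice changed at the same interval between high-fat diet and a ketogenic diet with 90.5% of its energy as fat; these 3 groups that ate high-fat diet are called fat-fed below. The labels name no genetic change in any group, and every liver was collected after an overnight fast. The labels do not say which diet an alternating group had last received, nor the hour of collection. Each group had 6 mice and 4 sequenced libraries. Nothing states that the 4 libraries came from separate animals, so the p-values cover only the variation among these libraries, which may be technical.

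The liver feeds the body during a fast. Pyruvate, lactate, glycerol and amino acids are turned into glucose (gluconeogenesis), and stored glycogen is broken down, while after a meal the same cells burn glucose (glycolysis), store it as glycogen, or send it through the pentose phosphate pathway. Several of the opposing enzymes share the cytosol. The balance is set by hormones, by metabolites and, over hours to days, by the transcript levels of a few control steps such as phosphoenolpyruvate carboxykinase and glucose-6-phosphatase. Fat that reaches the liver supplies the energy for gluconeogenesis, and acetyl-CoA from its oxidation activates pyruvate carboxylase.

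Expression is given in TPM, a gene's share of all transcripts, corrected for transcript length and scaled to a sum of 1000000 per library, so levels of different genes can be set beside each other. The sequencing depth is unknown, and 10575 to 11695 genes per library reached 1 TPM. The tissue label fitted the markers: 6 hepatocyte markers summed to between 80989 and 115214 TPM per library, while all 4 skeletal muscle and all 3 adipocyte markers stayed under 1 TPM in every library. The 20 most abundant genes of a library held 29.0 to 38.8% of its TPM on chow, 30.04 to 34.3% on the high-fat diet, 29.8 to 31.5% in the chow-alternating group and 27.1 to 29.5% in the ketogenic-alternating group. That share therefore did not overlap between the alternating groups, and in their comparison it cannot be told apart from diet. With the share as a covariate, 0 of the members and 1 of all genes passed that comparison. In 4 libraries (chow replicates 2 and 3, high-fat replicates 1 and 2) it was above 33%. Mitochondrially encoded genes held 10.2 to 18.4% of TPM on chow, 8.61 to 11.1% on high-fat diet, 9.26 to 10.4% in the chow-alternating and 8.61 to 10.2% in the ketogenic-alternating group. Chow replicate 3 had the highest of these values and the highest share in 20 genes, and the part of the mitochondrial share in the results was not tested. High-fat replicate 3 stood apart from the other high-fat libraries in several members, as given with them.

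Between diets, log2(TPM + 1) was compared with limma on the 8 libraries of each pair of groups, and p-values were adjusted by Benjamini-Hochberg over all genes tested. A gene passed at an adjusted p below 0.05. All fold changes below are differences on that log2 scale, which understates the change of genes near 1 TPM. All 39 members were tested in all 6 comparisons. In bulk tissue, fewer cells of a type and less RNA per cell cannot be told apart.

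Of the 39 genes, 9 passed in at least 1 comparison, and all of these calls involved the ketogenic-alternating group. Against the chow-alternating group 5 members were higher (Ldha, Pcx, Mfsd2a, Pdha1 and Gys2) and 0 lower, where 4.31% of all tested genes were higher and 0.727% lower. Against chow 3 were higher (Slc2a2, Pcx and Pfkfb1) and 2 lower (Pck1 and G6pc), beside 3.67% of all genes higher and 1.33% lower. In either comparison 12.8% of the members passed. Both counts moved with single libraries, as did the calls over all genes. Between the alternating groups 5.04% of all genes passed in either direction. Without chow-alternating replicate 1 or ketogenic-alternating replicate 1, 2 or 3 the comparison held 3 members, and 3.12, 3.14, 1.49 and 2.60% of all genes. Without chow-alternating replicate 2 or 3 it held 2 (Pcx and Ldha), beside 1.53 and 1.98% of all genes. Without ketogenic-alternating replicate 4 it held 8 members, or 20.5% of them, when 23.0% of all genes passed. Against chow, without chow replicate 1, 10 members (25.6%) and 14.8% of all genes passed. Without chow replicate 2 or ketogenic-alternating replicate 3 or 4 there were 3 members, beside 2.82, 1.88 and 4.85% of all genes. Without ketogenic-alternating replicate 2 there were 2 (Pcx and Slc2a2), beside 1.66%. No member passed between high-fat and chow (1.06% of all genes did), between chow-alternating and high-fat (0.0459%), between ketogenic-alternating and high-fat (0.036%) or between chow-alternating and chow (1.16%). At an unadjusted p below 0.05 those 4 comparisons held 7, 2, 11 and 9 of the 39 members. Of all tested genes, 1274 of 10960, 452 of 10899, 1116 of 11108 and 1340 of 10862 reached that level. A moderated F test across all 4 diets, which 3.87% of all genes passed, called Pfkfb1 (adjusted p = 0.0195), Slc2a2 (adjusted p = 0.0256) and Pcx (adjusted p = 0.0270). None of these 3 passed without chow replicate 2, when no member did, or without chow replicate 3, when G6pc and Ldha did. Pfkfb1 alone passed without chow replicate 4 or ketogenic-alternating replicate 2 or 3. Without high-fat replicate 3 the test called 8 members and 5.55% of all genes. With the share of the 20 most abundant genes as a covariate only Pfkfb1 of the 3 passed, beside G6pc and Ldha, and without the 4 libraries above 33% only Pcx of the 3, beside the same pair.

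A second count asked in how many members the 4 libraries of one group all lay above or all below those of the other. That held for 5 members between high-fat and chow (8.22% of all genes), 4 between chow-alternating and high-fat (3.02%), 4 between ketogenic-alternating and high-fat (6.85%), 9 between the alternating groups (16.8%), 6 between chow-alternating and chow (8.48%) and 8 between ketogenic-alternating and chow (13.3%). As shares of the 39 members these are 12.8, 10.3, 10.3, 23.1, 15.4 and 20.5%.

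The ketogenic-alternating libraries were shifted as a whole. The median log2 fold change of all tested genes was 0.21 against high-fat, 0.19 against chow-alternating and 0.15 against chow, and 83.0, 79.5 and 68.8% of all genes lay above 0. The members' own medians in those comparisons were 0.23, 0.19 and 0.15, so they shifted by about as much as other genes. Above 0 lay 31, 28 and 26 members, which became 20, 19 and 18 after the libraries were rescaled by the median ratio of their genes. The other comparisons had medians over all genes between -0.05 and 0.02. Between the alternating groups, markers of other cell types were also compared: of 4 sinusoidal endothelial markers 1 rose (Clec4g, by 0.69, adjusted p = 0.0418), and 0 of 6 resident macrophage and 0 of 5 stellate cell markers passed. The medians of these lists were 0.63, 0.75 and 0.53, all above the 0.19 of all genes. Other lists lay below it: the medians were -0.86 for 3 red blood cell markers, -0.30 for 2 tested lymphocyte markers and 0.07 for 2 tested cholangiocyte markers. No marker of those lists passed. Of 6 hepatocyte markers 1 fell (Serpina1c, by 0.51, adjusted p = 0.0213), and of 6 periportal markers 1 fell (Cyp2f2, by 0.48, adjusted p = 0.0275), with list medians of -0.43 and -0.41. The summed macrophage markers ranged from 133 to 184 TPM in the chow-alternating and from 121 to 417 TPM in the ketogenic-alternating group. Summed stellate cell markers ranged from 108 to 184 and from 158 to 317 TPM, and summed endothelial markers from 48.6 to 70.8 and from 85.9 to 124 TPM, so the last did not overlap. None of these markers was listed at 0 in all libraries. The part of these shifts in the 5 calls between the alternating groups was not tested. Fold changes of the ketogenic-alternating group are therefore also given relative to the median of all genes.

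**Figure D1:**
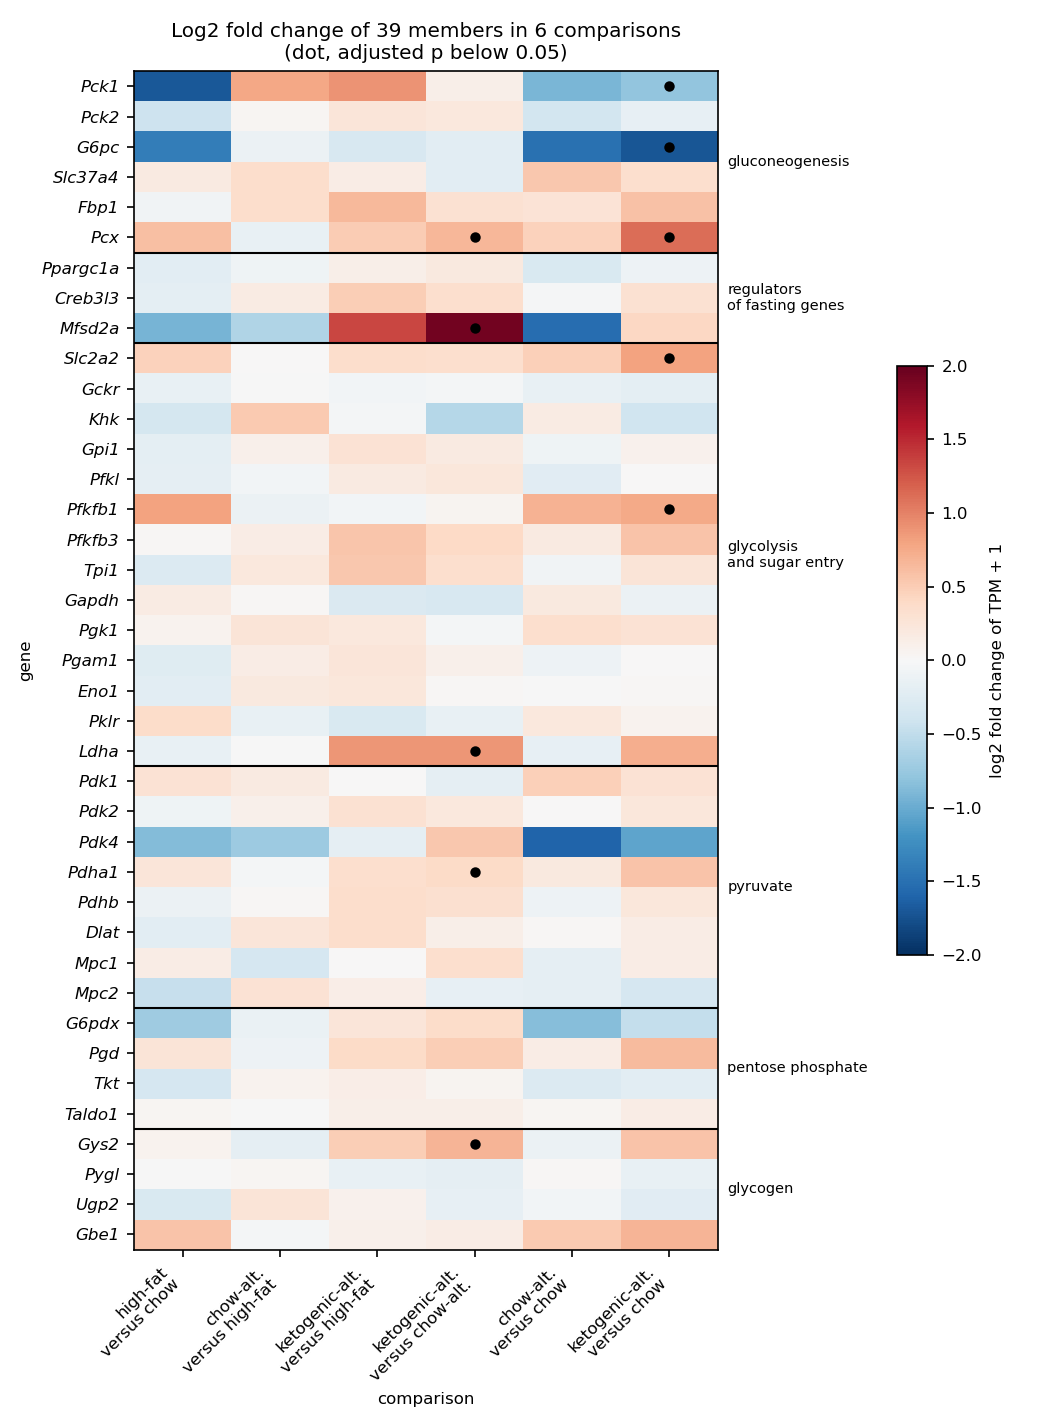
Log2 fold change of TPM + 1 (colour) of the 39 genes (vertical axis, grouped by role) in the 6 comparisons (horizontal axis), where a dot marks an adjusted p below 0.05. The dots stand only in the columns that compare the ketogenic-alternating group with chow-alternating (5 genes) and with chow (5 genes).

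Gluconeogenic transcripts moved in opposite directions. Relative to chow, the ketogenic-alternating livers held less Pck1 and G6pc and more Pcx, while Fbp1, Slc37a4 and Pck2 did not pass. Summed over the 6 genes, the group means were 3684 ± 494 TPM on chow, 2104 ± 947 on high-fat diet, 2780 ± 510 in the chow-alternating and 3093 ± 86.0 in the ketogenic-alternating group (SD, n = 4 each), and Pck1 contributed more than any other gene to each of these means.

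Pck1 (ENSMUSG00000027513, chromosome 2, 173153048 to 173159273, plus strand, mm10) encodes cytosolic phosphoenolpyruvate carboxykinase, which commits oxaloacetate to glucose production. It was the most abundant member, at a mean of 1455 TPM over the 16 libraries. In replicates 1 to 4, the order used for all genes here, it stood at 2107, 2552, 2098 and 2466 TPM on chow, at 322, 569.6, 1585 and 876 on high-fat diet, at 534, 1550.1, 1529.7 and 1752 in the chow-alternating group and at 1226, 1145, 1540.1 and 1426 in the ketogenic-alternating group. All 4 chow libraries lay above all 12 others, high-fat replicate 3 was far above the other high-fat libraries, and chow-alternating replicate 1 far below its group. Against chow, Pck1 fell by 0.79 in the ketogenic-alternating group (SE 0.142, adjusted p = 0.00967), or by 0.94 relative to the median of all genes. The high-fat difference from chow was larger but more scattered, at -1.69 (SE 0.381, adjusted p = 0.0692), and the chow-alternating difference was -0.91 (SE 0.310, adjusted p = 0.228). Over the 15 alternatives the high-fat difference of Pck1 ran from -2.08 (without high-fat replicate 3, adjusted p = 0.00759) to -0.95 (without the 4 libraries above 33%, adjusted p = 0.343), and it passed in 4 of them. The ketogenic call was lost in 4 of 15. Its adjusted p was 0.228 in 1 fit on all 16 libraries, 0.0734 with the share of the 20 most abundant genes as a covariate, 0.0549 without the 4 libraries above 33% and 0.0516 without ketogenic-alternating replicate 2, at differences between -0.79 and -0.72.

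The Pck1 promoter is shown because cyclic AMP, the messenger of the fasting hormone glucagon, is known to act there. RefSeq's promoter table (build GRCm38.p6) gave promoters for 38 of the 39 genes, 55 in all, each from 250 bases before to 50 after the start. Gys2 had no entry. The stretch printed here lies upstream of the annotated gene on the plus strand, at chr2:173152823-173153031, and the capitals mark TTACGTCA, which begins 93 bases before the RefSeq start.
Pck1: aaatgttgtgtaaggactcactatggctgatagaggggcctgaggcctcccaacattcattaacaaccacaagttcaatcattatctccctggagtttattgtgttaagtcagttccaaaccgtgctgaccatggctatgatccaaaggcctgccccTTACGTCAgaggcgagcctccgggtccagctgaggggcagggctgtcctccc
Searched on both strands, this variant of the cAMP response element, chosen after the values were seen, stood in 0.499% of all 32851 mouse promoters and in no other member. The full palindrome TGACGTCA was in 1.79% of all promoters and, among the members, in Ldha alone. The forkhead letters TGTTTAC were in 3.65% of all promoters and in no member, and a direct repeat of the nuclear receptor letters AGGTCA with 1 base between them was in 13 promoters, none of a member.

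G6pc (ENSMUSG00000078650, chromosome 11, 101367561 to 101377903, plus strand) encodes the catalytic subunit of glucose-6-phosphatase, which releases free glucose at the last step. Its level was 429, 409, 98.7 and 243 TPM on chow, 87.1, 126, 140.3 and 57.4 on high-fat diet, 58.4, 119, 126 and 74.2 in the chow-alternating group and 86.0, 115, 65.8 and 54.5 in the ketogenic-alternating group. Chow replicates 1, 2 and 4 lay above all other livers, but chow replicate 3 lay within the range of each fat-fed group. The ketogenic-alternating group fell by 1.71 against chow (SE 0.408, adjusted p = 0.0353), or by 1.86 relative to all genes. The high-fat and chow-alternating differences from chow were -1.38 (adjusted p = 0.210) and -1.49 (adjusted p = 0.139), and without chow replicate 3 they were -1.84 (adjusted p = 0.0379) and -1.95 (adjusted p = 0.0160). Over the 15 alternatives their adjusted p for G6pc ran up to 0.472 and 0.370, and 1 and 3 alternatives passed. The ketogenic call of G6pc passed in 8 of 15 alternatives. It was lost with no filter on low values, and without chow replicate 2 (-1.48, adjusted p = 0.103) or 4 (-1.73, adjusted p = 0.0818). It was also lost without any single ketogenic-alternating library, at adjusted p = 0.0767, 0.0601, 0.106 and 0.0647 for replicates 1 to 4.

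Pcx (ENSMUSG00000024892, chromosome 19, 4510472 to 4621752, plus strand) encodes mitochondrial pyruvate carboxylase, which makes oxaloacetate from pyruvate and is the entry step of gluconeogenesis. It was measured at 215, 148, 114 and 173 TPM on chow, 182, 176, 333 and 317 on high-fat diet, 248, 196, 204 and 224 in the chow-alternating group and 321, 396, 356 and 311 in the ketogenic-alternating group. All ketogenic-alternating libraries lay above all chow and chow-alternating libraries, whereas 2 of the 4 high-fat libraries reached their range. Pcx rose by 1.12 against chow (SE 0.184, adjusted p = 0.00650, 0.97 relative to all genes) and by 0.66 against the chow-alternating group (SE 0.107, adjusted p = 0.00923, 0.48 relative to all genes). Against high-fat the difference was 0.51 (SE 0.222, adjusted p = 0.486). After median-ratio scaling the difference between the alternating groups was 0.48 (adjusted p = 0.0506) and that from chow 0.96 (adjusted p = 0.00407). The call between the alternating groups passed in 11 of 15 alternatives. It was also lost with replicate number in the fit (replicate block), with the share of the 20 most abundant genes as a covariate and in 1 fit on all 16 libraries. The call against chow passed in 14 of 15 and was lost with the covariate (adjusted p = 0.0509). With the covariate the difference from high-fat was -0.16.

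Pcx was 1 of 5 members, with Ldha, Khk, Pdk2 and Pfkfb3, with the E-box letters CACGTG in a RefSeq promoter, searched on both strands. Basic helix-loop-helix factors, including the carbohydrate sensor ChREBP, read E-boxes. These letters stood in 5 of the 55 member promoters, beside 7.15% of all promoters. A pair of exact CACGTG E-boxes with 5 bases between them, the spacing of the classical carbohydrate response element, was in 0 of the 32851 promoters. That search allowed no mismatch, so the count does not show that such elements are absent. The printed Pcx stretch, chr19:4510222-4510430 on the plus strand, lies just upstream of the annotated gene. Its capitals mark the E-box, which begins 248 bases before the RefSeq start.
Pcx: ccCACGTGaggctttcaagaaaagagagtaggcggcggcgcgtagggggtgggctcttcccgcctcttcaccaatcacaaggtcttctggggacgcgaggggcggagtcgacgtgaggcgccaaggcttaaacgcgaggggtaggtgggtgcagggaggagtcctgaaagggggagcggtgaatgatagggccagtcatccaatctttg

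Fbp1, which removes a phosphate from fructose bisphosphate against the direction of glycolysis, was the second most abundant gluconeogenic gene. Its group means were 819 ± 179.8 TPM on chow, 793 ± 279.9 on high-fat diet, 980.4 ± 126 in the chow-alternating and 1204 ± 131 in the ketogenic-alternating group (SD, n = 4). The ketogenic-alternating libraries did not overlap with the chow or the chow-alternating libraries, yet the differences of 0.58 (adjusted p = 0.0882) and 0.30 (adjusted p = 0.131) did not pass. The nearest libraries of the alternating groups, at 1096 TPM each, were almost equal. Slc37a4, which carries glucose-6-phosphate to the enzyme that G6pc encodes, had means between 99.1 ± 21.95 TPM on chow and 144 ± 22.8 in the chow-alternating group. Its difference from chow in the chow-alternating group was 0.54 (adjusted p = 0.194). Pck2, the mitochondrial carboxykinase, was low throughout, between 1.09 and 5.91 TPM.

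**Figure D2:**
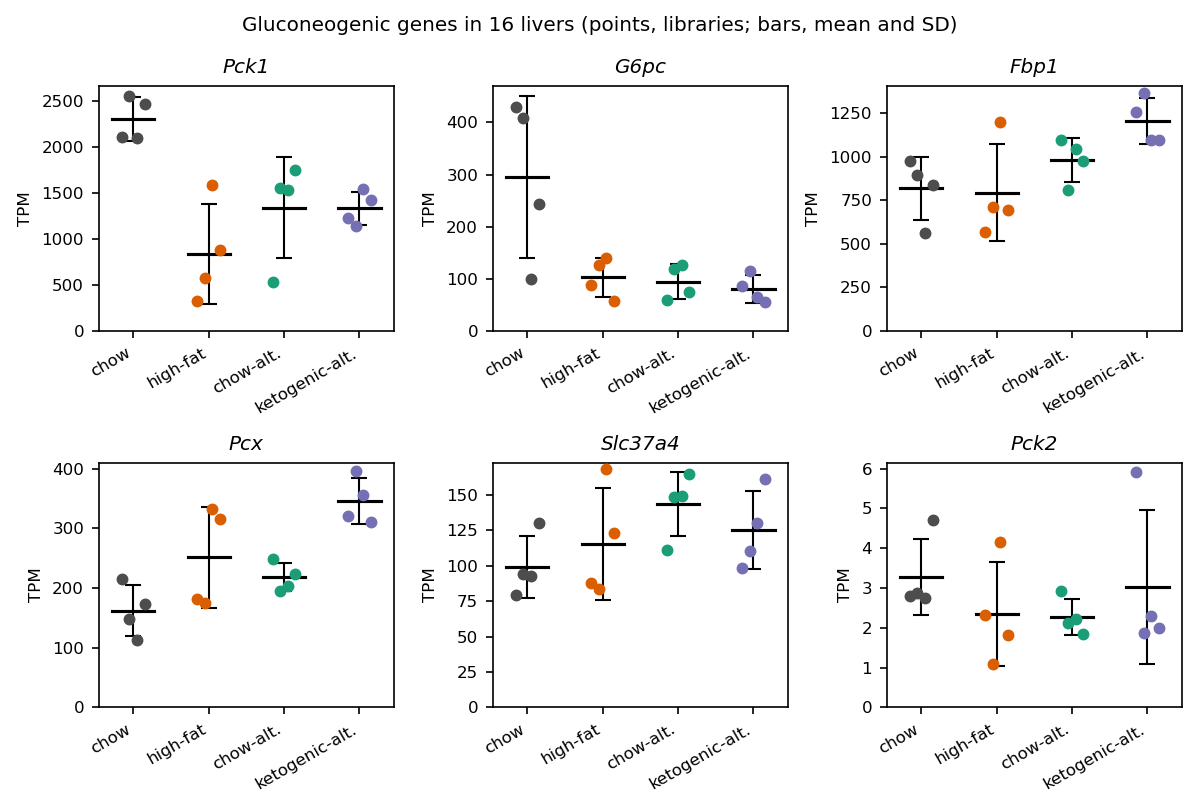
TPM of the 6 gluconeogenic genes (vertical axes, from 0) in the 4 diet groups (horizontal axes); each point is 1 library, and lines and bars give mean and SD. Pck1 in the 4 chow libraries lies above all others, G6pc in chow replicate 3 (98.7 TPM) lies among the fat-fed livers, and Pcx is highest in the ketogenic-alternating group (311 to 396 TPM) and high-fat replicates 3 and 4.

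Many gluconeogenic genes are expressed along a gradient from the portal to the central vein of the liver lobule, so markers of both zones are given beside Pck1 and G6pc. The 6 periportal markers summed to 5066 to 7036 TPM on chow and to 3354 to 5210 in the ketogenic-alternating group. In the high-fat group the sums were 3913, 3051, 6680 and 3338. High-fat replicate 3 had the most Pck1 of its group and also the most periportal marker RNA. The same held for chow replicate 2 and chow-alternating replicate 4 in their groups. In the ketogenic-alternating group, replicate 3 had the most Pck1 (1540.1 TPM) but the lowest periportal sum (3354 TPM). The chow-alternating sums were 5063 to 6046 TPM. None of these 12 zonal markers was listed at 0 in all libraries. Against chow, 1 periportal marker fell in the ketogenic-alternating group (Sds, by 1.26, adjusted p = 0.00524), and 3 of the 6 pericentral markers rose (Cyp2e1 by 1.00, adjusted p = 0.00918, Oat by 1.20, adjusted p = 0.0113, Glul by 0.81, adjusted p = 0.0232). Summed pericentral markers were 5323 to 6428 TPM on chow and higher in every fat-fed library, at 7503 to 10584, 8011 to 10419 and 8787 to 13130 TPM in the high-fat, chow-alternating and ketogenic-alternating groups. Cyp2e1 made up most of each sum. The pericentral marker Cyp1a2 did not share the rise: it was at 357 to 571 TPM on chow and at 178 to 401, 299.7 to 542 and 172 to 413 TPM in those 3 groups. In the chow-alternating group Cyp2e1 and Oat also rose over chow, by 0.71 (adjusted p = 0.0333) and 0.94 (adjusted p = 0.0458). Pck1 and G6pc differed from chow there by -0.91 and -1.49, without passing. Of the 6 hepatocyte markers, Ttr fell by 0.88 (adjusted p = 0.00965), Tat fell by 0.98 (adjusted p = 0.0293) and Apoa1 rose by 0.75 (adjusted p = 0.0267) in the ketogenic-alternating group against chow. The part of these marker changes in the Pck1 and G6pc results was not tested.

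**Figure D3:**
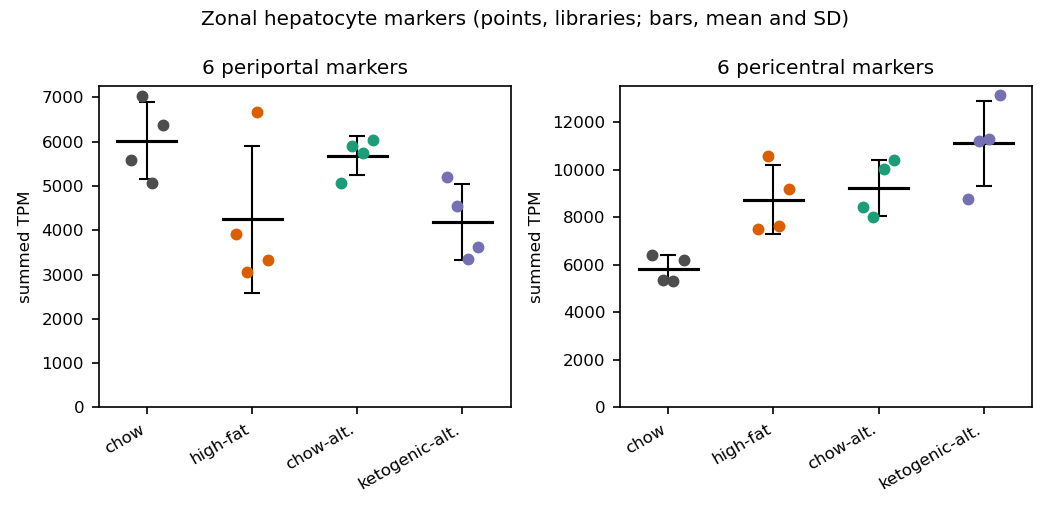
Summed TPM of 6 periportal (left) and 6 pericentral (right) hepatocyte markers in the 4 diet groups; each point is 1 library, and lines and bars give mean and SD. The chow libraries have the lowest pericentral sums (5323 to 6428 TPM), and high-fat replicate 3 has the highest periportal sum of its group (6680 TPM).

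Among the regulators and fasting-responsive genes, Mfsd2a rose and Ppargc1a and Creb3l3 did not pass. Mfsd2a (ENSMUSG00000028655, chromosome 4, 122946850 to 122961188, minus strand) encodes a sodium-dependent transporter of lysophosphatidylcholine that is induced in liver by fasting. Its level was 46.7, 134, 45.3 and 137 TPM on chow, 14.2, 40.1, 109.6 and 44.8 on high-fat diet, 9.21, 38.6, 33.3 and 42.5 in the chow-alternating group and 83.1, 114, 86.2 and 150.2 in the ketogenic-alternating group. The alternating groups did not overlap, while chow split into 2 low and 2 high libraries, all above the chow-alternating group. Mfsd2a was higher in the ketogenic-alternating than in the chow-alternating group by 1.93 (SE 0.402, adjusted p = 0.0257), or 1.75 relative to all genes, which was the largest difference of a member in that comparison. The call was lost without chow-alternating replicate 2 (2.10, adjusted p = 0.0505) or 3 (2.03, adjusted p = 0.0527), without ketogenic-alternating replicate 2 (1.89, adjusted p = 0.0816) and after median-ratio scaling (1.74, adjusted p = 0.0656). It was also lost with no filter on low values, with the covariate and in 1 fit on all 16 libraries. The chow-alternating group lay entirely below chow, at -1.52 (adjusted p = 0.199).

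Creb3l3, a liver-enriched transcription factor activated on fasting, had group means of 225 ± 55.7 TPM on chow, 199 ± 59.3 on high-fat diet, 217 ± 31.0 in the chow-alternating and 272 ± 12.9 in the ketogenic-alternating group (SD, n = 4). The alternating groups did not overlap, with a difference of 0.33 (adjusted p = 0.0878), of which 0.15 remained relative to all genes. Ppargc1a, the coactivator PGC-1 alpha that drives gluconeogenic genes, was near the lower limit of measurement, with group means between 2.02 and 2.73 TPM. From 60.8 to 100% of its TPM came from 1 transcript, Ppargc1a-203, in each library, and no pair of groups passed for that share (exact permutation p between 0.371 and 0.971).

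Glycolysis and sugar entry formed the largest set, with 14 genes. Slc2a2 and Pfkfb1 rose against chow and Ldha rose against the chow-alternating group, all in ketogenic-alternating livers, and none of the 14 passed as lower. The summed level was 2457 ± 335 TPM on chow, 2222 ± 310 on high-fat diet, 2464 ± 170 in the chow-alternating and 2897 ± 92.9 in the ketogenic-alternating group (SD, n = 4).

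Slc2a2 (ENSMUSG00000027690, chromosome 3, 28697903 to 28731359, plus strand) encodes GLUT2, the transporter that lets glucose pass in both directions across the hepatocyte membrane. It stood at 68.3, 68.2, 61.8 and 66.5 TPM on chow, at 71.8, 84.3, 96.6 and 121 on high-fat diet, at 90.0, 81.3, 83.4 and 119 in the chow-alternating group and at 102, 121, 118 and 128 in the ketogenic-alternating group. All 12 fat-fed libraries lay above all chow libraries, which were close together. In the ketogenic-alternating group the rise over chow was 0.81 (SE 0.121, adjusted p = 0.00369), or 0.66 relative to all genes. The high-fat and chow-alternating differences from chow were 0.47 (SE 0.177, adjusted p = 0.313) and 0.48 (SE 0.139, adjusted p = 0.161). Of the 10 calls among the members, the rise of Slc2a2 over chow was the one that passed in all 15 alternative analyses, with adjusted p between 0.00393 and 0.0265.

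Pfkfb1 (ENSMUSG00000025271, chromosome X, 150588229 to 150643878, plus strand) encodes the liver form of the bifunctional enzyme that makes and removes the signal metabolite that favours glycolysis over gluconeogenesis. Its level was 17.4, 17.7, 12.9 and 20.1 TPM on chow, 24.1, 27.7, 40.1 and 30.9 on high-fat diet, 32.0, 24.8, 24.3 and 30.6 in the chow-alternating group and 25.5, 27.2, 32.9 and 30.8 in the ketogenic-alternating group. Every fat-fed library was above every chow library, and the 3 fat-fed groups overlapped with each other. The differences from chow were 0.81 on high-fat diet (SE 0.203, adjusted p = 0.110), 0.69 in the chow-alternating group (SE 0.163, adjusted p = 0.0781) and 0.75 in the ketogenic-alternating group (SE 0.162, adjusted p = 0.0232, 0.60 relative to all genes). Only the last of these passed, although the sizes were alike; after median-ratio scaling all 3 did, at 0.87 (adjusted p = 0.0116), 0.72 (adjusted p = 0.0239) and 0.59 (adjusted p = 0.0346). The ketogenic call passed in 8 of 15 alternatives. It was lost without chow replicate 2 (adjusted p = 0.0564) and without ketogenic-alternating replicate 2, 3 or 4 (adjusted p = 0.0720, 0.0938 and 0.0517). The call was also lost without the 4 libraries above 33% (0.61, adjusted p = 0.0947), with the replicate block and with the covariate.

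Ldha (ENSMUSG00000063229, chromosome 7, 46841475 to 46855627, plus strand) encodes the lactate dehydrogenase A subunit, which interconverts pyruvate and lactate. It was measured at 809, 651, 373 and 893 TPM on chow, 460.0, 500.4, 875 and 569 on high-fat diet, 611, 494, 706 and 525 in the chow-alternating group and 1123, 1022, 1075 and 1055 in the ketogenic-alternating group. The 4 ketogenic-alternating libraries were close together and above all 12 others. Ldha rose by 0.88 against the chow-alternating group (SE 0.113, adjusted p = 0.00347), or 0.70 relative to all genes, and was the only member to pass that comparison after median-ratio scaling (0.69, adjusted p = 0.0169). Its differences from high-fat, 0.88 (SE 0.193, adjusted p = 0.317), and from chow, 0.72 (SE 0.232, adjusted p = 0.101), did not pass. Over the 15 alternatives the difference from high-fat ran from 0.43 (with the covariate, adjusted p = 0.749) to 1.07 (without high-fat replicate 3, adjusted p = 0.0149), the only one to pass. The difference from chow ran from 0.12 (with the covariate, adjusted p = 0.779) to 0.88 (without chow replicate 4, adjusted p = 0.0803). It was 0.46 without chow replicate 3 (adjusted p = 0.0961), and passed only without chow replicate 1 (0.83, adjusted p = 0.0397). The call between the alternating groups was lost with the covariate (0.73, adjusted p = 0.413) and in 1 fit on all 16 libraries (0.88, adjusted p = 0.0886).

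The Ldha promoter is printed because, among the members, it alone held more than 1 of the searched motifs. The stretch chr7:46845554-46845762, on the plus strand, lies within the annotated gene but overlaps no annotated exon, and the capitals mark the E-boxes, which begin 145 and 48 bases before the RefSeq start. The element TGACGTCA begins 12 bases before the start, outside the printed stretch.
Ldha: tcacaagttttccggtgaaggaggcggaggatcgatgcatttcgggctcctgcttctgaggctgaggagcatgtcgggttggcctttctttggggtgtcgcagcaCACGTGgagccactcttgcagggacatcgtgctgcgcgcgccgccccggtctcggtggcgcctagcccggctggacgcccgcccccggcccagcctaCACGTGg
A match to these letters describes the sequence and does not show that a factor binds there.

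Khk, which phosphorylates fructose, was the most abundant gene of the set without a call. Its group means were 442 ± 41.4 TPM on chow, 353 ± 83.7 on high-fat diet, 499 ± 64.0 in the chow-alternating and 340.0 ± 71.1 in the ketogenic-alternating group (SD, n = 4). The alternating groups did not overlap, at -0.57 (SE 0.151, adjusted p = 0.0557), or -0.75 relative to all genes, where most genes lay above 0. It passed in 1 of 15 alternatives, without ketogenic-alternating replicate 4 (-0.68, adjusted p = 0.0145), and was smallest with the covariate (-0.17, adjusted p = 0.951). Most Khk TPM came from the transcript Khk-204, at 87.3, 84.1, 87.5 and 87.4% on average in the chow, high-fat, chow-alternating and ketogenic-alternating groups. Both alternating groups had larger shares than the high-fat group in all libraries (exact permutation p = 0.0286 each, the smallest this test can give). Over 24 such tests the adjusted p was 0.171, the smallest reached among them, so neither difference passed.

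Tpi1, triose phosphate isomerase, had group means of 339 ± 74.3, 277 ± 50.3, 317 ± 26.8 and 401 ± 50.5 TPM in the chow, high-fat, chow-alternating and ketogenic-alternating groups (SD, n = 4), and did not overlap between ketogenic-alternating and high-fat (0.54, adjusted p = 0.486). The other genes of the main glycolytic chain, Gpi1, Pfkl, Gapdh, Pgk1, Pgam1, Eno1 and Pklr, did not pass in any comparison, and neither did Gckr, the inhibitor of glucokinase. The group means of Pklr, the liver pyruvate kinase and a known ChREBP target, were 65.5 ± 17.3, 87.7 ± 36.7, 76.5 ± 21.9 and 68.4 ± 15.5 TPM in the same order, within the spread of the libraries. Several of these genes (Gapdh, Eno1, Ldha, Pgk1, Pgam1 and Tpi1) have processed copies elsewhere in the genome, so the split of reads between gene and copies is uncertain.

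Pfkfb3, an inducible relative of Pfkfb1, was low, between 0.995 and 4.997 TPM. The share of its TPM in the transcript Pfkfb3-220 was 62.4, 84.5, 76.0 and 51.3% on chow, 98.7, 96.7, 76.6 and 47.7% on high-fat diet, 60.8, 88.2, 58.5 and 0% in the chow-alternating group and 22.8, 37.8, 18.1 and 22.9% in the ketogenic-alternating group. All ketogenic-alternating shares were below all chow and all high-fat shares (exact permutation p = 0.0286 each, adjusted p = 0.171). In that group the largest share, 39.3% on average, was in Pfkfb3-206, which held 0.180% on chow. At such low levels the split between transcripts is an estimate with few reads behind it. Pklr had 77.8 to 99.8% of its TPM in 1 transcript, Pklr-202, and no pair of groups passed (exact permutation p between 0.400 and 0.943).

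**Figure D4:**
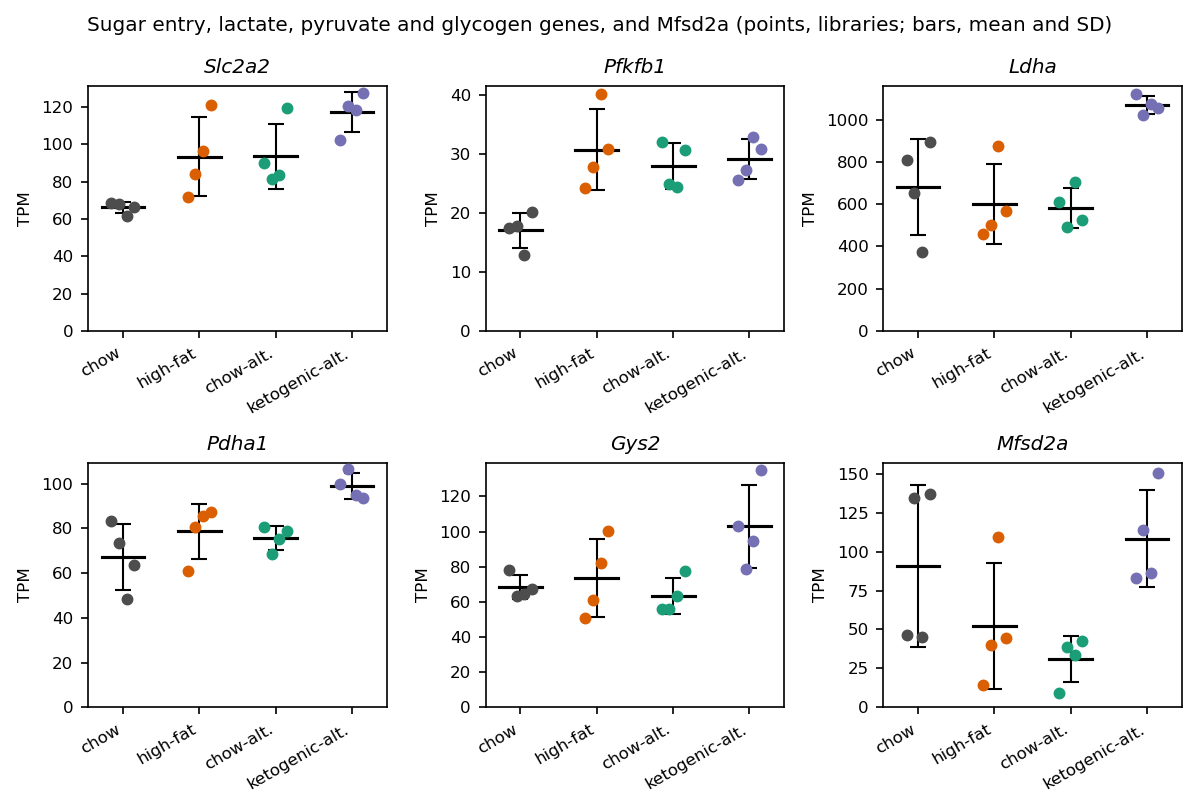
TPM of Slc2a2, Pfkfb1, Ldha, Pdha1, Gys2 and Mfsd2a (vertical axes, from 0) in the 4 diet groups (horizontal axes); each point is 1 library, and lines and bars give mean and SD. Slc2a2 and Pfkfb1 are lowest in the chow libraries, and Ldha is at 1022 to 1123 TPM in the ketogenic-alternating group, above every other library.

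Of 8 genes of pyruvate use, Pdha1 alone passed, in 1 comparison. Pdha1 (ENSMUSG00000031299, chromosome X, 160122209 to 160138413, minus strand) encodes the E1 alpha subunit of pyruvate dehydrogenase, which turns pyruvate into acetyl-CoA. It stood at 83.3, 73.5, 48.2 and 63.7 TPM on chow, at 60.9, 80.7, 85.4 and 87.4 on high-fat diet, at 80.6, 68.5, 75.4 and 78.9 in the chow-alternating group and at 99.8, 106, 95.04 and 93.6 in the ketogenic-alternating group. The ketogenic-alternating libraries were above all 12 others. Pdha1 rose by 0.38 over the chow-alternating group (SE 0.0862, adjusted p = 0.0363), of which 0.19 remained relative to all genes, and after median-ratio scaling it did not pass (adjusted p = 0.260). Leaving out any single library except ketogenic-alternating replicate 4 also ended the call, with adjusted p from 0.0533 (without chow-alternating replicate 1) to 0.111 (without ketogenic-alternating replicate 2). So did the replicate block, the covariate and 1 fit on all 16 libraries, and the call passed in 4 of 15 alternatives. Its differences from chow, 0.58 (adjusted p = 0.0747), and from high-fat, 0.34 (adjusted p = 0.486), did not pass. The difference from chow passed in 2 of 15 alternatives, in 1 fit on all 16 libraries and without chow replicate 1.

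Mpc2 and Mpc1, the subunits of the mitochondrial pyruvate carrier, were the most abundant of the set. Mpc2 averaged 357 ± 40.4 TPM on chow, 259.9 ± 38.2 on high-fat diet, 315 ± 16.1 in the chow-alternating and 283 ± 38.0 in the ketogenic-alternating group (SD, n = 4), and its high-fat libraries all lay below chow (-0.46, adjusted p = 0.274). Mpc1 averaged 211 ± 55.7, 227 ± 8.68, 181 ± 18.8 and 230.2 ± 36.6 TPM in the same order. Pdhb and Dlat, further subunits of the pyruvate dehydrogenase complex, did not pass. The kinases that switch the complex off, Pdk1, Pdk2 and Pdk4, did not pass either. Pdk4, which fasting and fatty acids are known to induce, was low, at 14.9, 22.8, 5.48 and 7.16 TPM on chow, 6.60, 11.97, 4.81 and 2.09 on high-fat diet, 4.79, 1.73, 4.03 and 1.93 in the chow-alternating group and 8.39, 5.95, 3.89 and 2.31 in the ketogenic-alternating group. All chow-alternating libraries were below all chow libraries (-1.61, SE 0.392, adjusted p = 0.0873), and without chow replicate 3 the difference was -1.90 (adjusted p = 0.0478), over a range of adjusted p from 0.0429 to 0.279 in the 15 alternatives.

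No gene of the pentose phosphate pathway passed. Taldo1, transaldolase, had the smallest ratio between group means of the 39 genes, with means from 135 to 150.0 TPM, and Tkt, transketolase, averaged 73.2 ± 15.5 TPM on chow, 56.8 ± 4.36 on high-fat diet, 59.9 ± 7.36 in the chow-alternating and 62.5 ± 9.08 in the ketogenic-alternating group (SD, n = 4). Pgd, a step that yields NADPH, did not overlap between the alternating groups (0.49, SE 0.136, adjusted p = 0.0623) and passed in 1 of 15 alternatives, without ketogenic-alternating replicate 4 (0.56, adjusted p = 0.0231), while with the covariate the difference was 0.02 (adjusted p = 0.992). G6pdx, the first enzyme of the pathway, lay between 1.55 and 9.58 TPM.

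Of the 4 glycogen genes, Gys2 alone passed, in 1 comparison. Gys2 (ENSMUSG00000030244, chromosome 6, 142422613 to 142473109, minus strand) encodes the liver glycogen synthase. It was measured at 78.2, 63.2, 64.4 and 67.1 TPM on chow, 51.0, 61.0, 82.3 and 100.3 on high-fat diet, 55.9, 56.2, 63.6 and 77.5 in the chow-alternating group and 103, 78.9, 94.6 and 135 in the ketogenic-alternating group. The ketogenic-alternating libraries lay above all chow and chow-alternating libraries, but ketogenic-alternating replicate 2 was only just above the highest of them. Gys2 rose by 0.68 over the chow-alternating group (SE 0.162, adjusted p = 0.0413), or 0.49 relative to all genes, and differed from chow by 0.56 (SE 0.167, adjusted p = 0.0803). After median-ratio scaling the difference between the alternating groups was 0.49 (adjusted p = 0.176). Leaving out chow-alternating replicate 1, 2 or 3 or ketogenic-alternating replicate 1 or 3 ended the call (adjusted p = 0.0857, 0.122, 0.0936, 0.0812 and 0.0750). So did using no filter on low values, the covariate or 1 fit on all 16 libraries.

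The other genes of glycogen metabolism did not pass. Ugp2, which makes the activated glucose used by glycogen synthase, averaged 252 ± 26.9 TPM on chow, 204 ± 26.3 on high-fat diet, 242 ± 7.02 in the chow-alternating and 216 ± 21.6 in the ketogenic-alternating group (SD, n = 4), and Pygl, the liver glycogen phosphorylase, 172 ± 36.0, 170.3 ± 24.9, 175 ± 26.3 and 153 ± 16.8 TPM. Gbe1, the branching enzyme, had means from 29.9 ± 10.9 TPM on chow to 46.1 ± 5.84 TPM in the ketogenic-alternating group (0.68, adjusted p = 0.139). Whether Gys2 and Pygl differed from each other in their response was not tested.

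**Figure D5:**
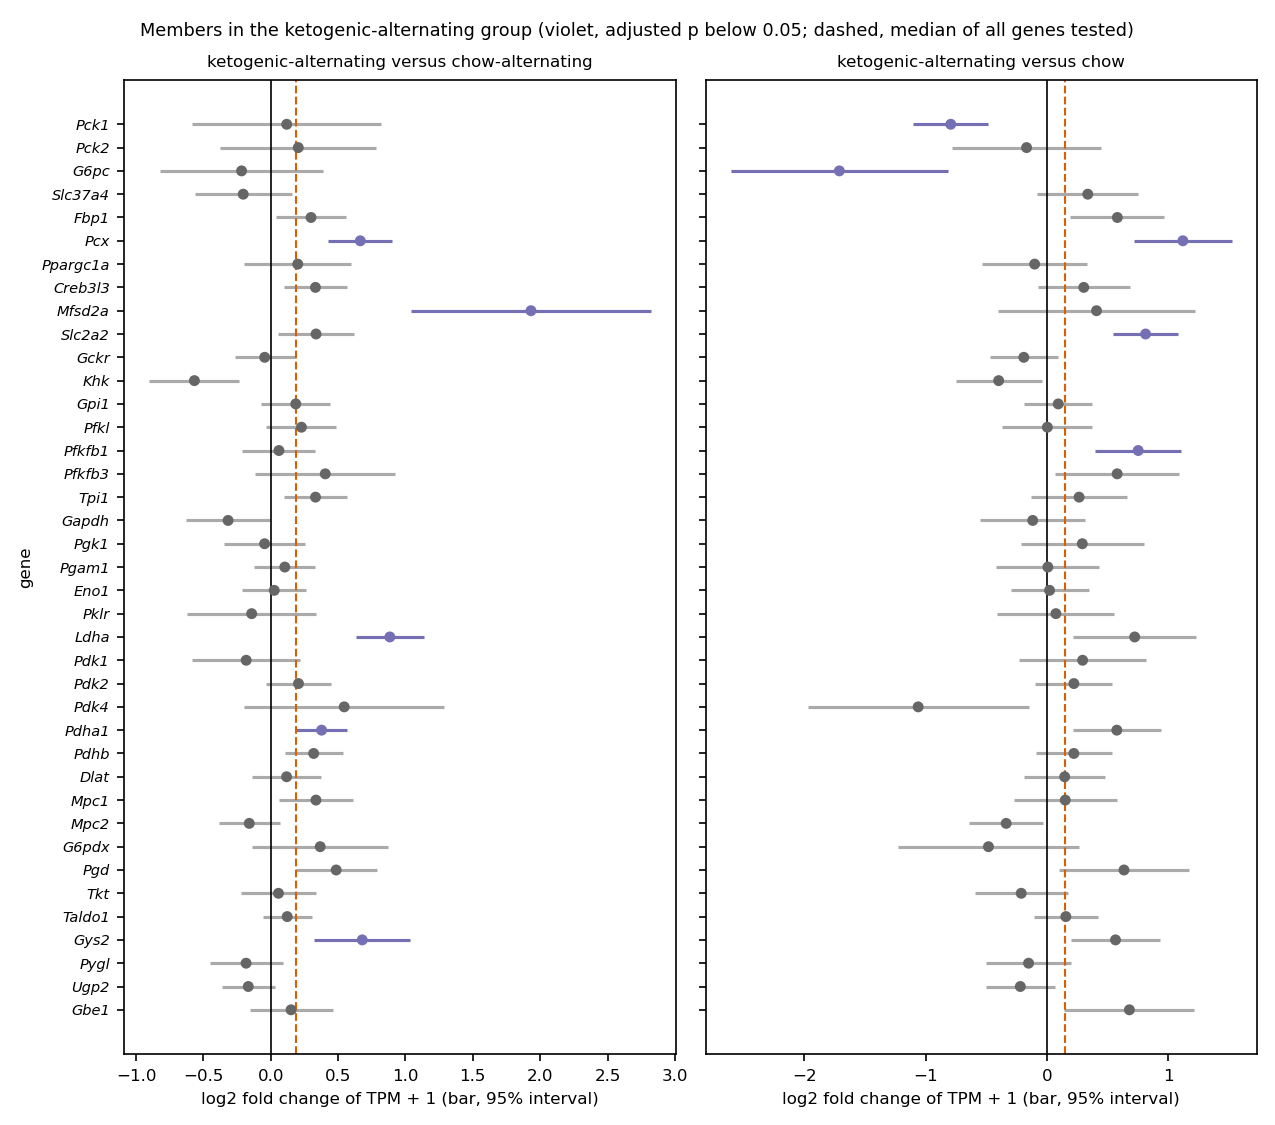
Log2 fold change of TPM + 1 (horizontal axes) with its 95% interval for the 39 genes in the ketogenic-alternating group against chow-alternating (left) and chow (right); violet marks an adjusted p below 0.05 and the dashed line the median of all tested genes (0.19 and 0.15). Mfsd2a on the left (1.93) and G6pc on the right (-1.71) lie farthest from 0.

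In the 30 members without any call, the ratio of highest to lowest group mean ran from 1.11 (Taldo1) to 4.04 (Pdk4), with a median of 1.31. Their smallest adjusted p over the 6 comparisons lay between 0.0557 and 0.576. A missed threshold does not show equal levels, so the intervals are given as well: the 95% interval of the fold change lay within 2-fold in either direction for 30 of the 39 members between high-fat and chow, 36 between chow-alternating and high-fat, 33 between ketogenic-alternating and high-fat, 35 between the alternating groups, 32 between chow-alternating and chow, and 27 between ketogenic-alternating and chow.

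Another 72 genes of these pathways were examined beside the members, of which 62 to 64 were tested per comparison. None passed between high-fat and chow, between chow-alternating and high-fat or between ketogenic-alternating and high-fat. At an unadjusted p below 0.05 these comparisons held 8 of 63, 3 of 64 and 7 of 64 tested genes of the list. Among all genes the counts were 1274 of 10960, 452 of 10899 and 1116 of 11108. Against chow, 5 rose and 2 fell in the ketogenic-alternating group. The aminotransferases Got2 and Gpt2 rose by 0.66 (adjusted p = 0.0254) and 1.09 (adjusted p = 0.0176), the glycerol channel Aqp9 by 0.76 (adjusted p = 0.0248), the aldolase Aldoc by 1.32 (adjusted p = 0.00650) and the fructose transporter Slc2a5 by 1.76 (adjusted p = 0.00136). Sds and Tat, which break down serine and tyrosine, fell by 1.26 (adjusted p = 0.00524) and by 0.98 (adjusted p = 0.0293). Both are also markers in the lists above, Sds of periportal cells and Tat of hepatocytes. Slc2a5 averaged 2.24 TPM on chow, 7.29 on high-fat diet, 5.70 in the chow-alternating and 9.81 in the ketogenic-alternating group, and it also passed between chow-alternating and chow (1.06, adjusted p = 0.0465) and between the alternating groups (0.70, adjusted p = 0.0409). Got2 rose in that last comparison too (0.35, adjusted p = 0.0437). Their median against chow in the ketogenic-alternating group was 0.16, beside 0.15 for all genes, and the comparisons with chow share the chow libraries.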

How the data were processed

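Per the series' design text, reads were aligned to the mm10 mouse genome with HISAT2 and quantified with RSEM 1.1.17 on Ensembl annotation, and the authors compared groups with edgeR 3.14.0. That text names FPKM, but each column of the deposited tables summed to 1000000, so the deposited values are TPM. The depth of a library cannot be read from TPM, and a rise of abundant transcripts reduces the TPM of the rest. Gene positions are from GENCODE vM21.

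The values were transformed as log2(TPM + 1), and a gene was kept where 4 or more libraries of a comparison reached 1 TPM. The fits used limma 3.58.1 (R 4.3.3), with an intensity trend and no covariates, on the 8 libraries of each comparison, and on all 16 for the F test, with Benjamini-Hochberg adjustment over all genes tested. Shares of the leading transcript were compared for 4 genes by two-sided exact permutation tests, and only the text of the promoters was searched. The 39 members and the lists of 72 other genes and of markers were chosen with earlier results of these data known, and no list-wide test was run. All members that passed are described library by library, with the 2 most abundant others of each role group by their means. Other members named singly were chosen after their values were seen. Alternatives tried were a pseudocount of 0.1, no filter, median-ratio scaling, a replicate block, the share of TPM in the 20 highest genes as a covariate, leaving out the 4 libraries where it was above 33%, 1 fit on all libraries, and leaving out each library in turn.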

Additional observations from a re-analysis of the deposited data

Results flagged for a closer look

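In 156 groups of 4 libraries (39 genes in 4 diets), Dixon's test for a library far from the other 3 picked out 7, where chance picks about 1 in 20 groups. Pck2 was at 4.70 TPM in chow replicate 4 (2.75 to 2.87 in the others) and at 5.91 TPM in ketogenic-alternating replicate 1 (1.88 to 2.30). Tpi1 was at 228 TPM in chow replicate 3 (365 to 387). Eno1 was at 365 TPM in chow replicate 2 (277 to 281) and at 246 TPM in ketogenic-alternating replicate 3 (319.9 to 332). Pdhb was at 66.0 TPM in high-fat replicate 1 (89.3 to 93.8) and at 101 TPM in chow-alternating replicate 4 (80.0 to 81.7). None of these 4 genes passed in a comparison of all libraries. Without chow-alternating replicate 4, Pdhb passed between the alternating groups (0.40, adjusted p = 0.0499).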

How the results depend on the processing

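The number of members that passed moved with the setting, and the cause was not tested. Between high-fat and chow it went from 0 to 2 (Pck1 and Pfkfb1) with median-ratio scaling, with the share of the 20 highest genes as a covariate and with 1 fit on all 16 libraries, and to between 0 and 1 when 1 library was left out. Between chow-alternating and high-fat it was 0 throughout. Between ketogenic-alternating and high-fat it was 0, or 0 to 1 with 1 library left out. Between the alternating groups it went from 5 to 3 without the filter, to 1 with median-ratio scaling, to 0 with the covariate and with 1 fit, and to between 2 and 8 with 1 library left out. Between chow-alternating and chow it went from 0 to 1 (Pfkfb1) with median-ratio scaling, to 2 (G6pc and Pdk4) with the covariate, to 1 (G6pc) without the 4 libraries above 33%, and to between 0 and 2 with 1 library left out. Between ketogenic-alternating and chow it went from 5 to 4 without the filter, where G6pc was lost, and to 2 (G6pc and Slc2a2) with the covariate. There it was 3 (G6pc, Pcx and Slc2a2) without the 4 libraries, and between 2 and 10 with 1 library left out. The F test called 3 members, 2 without the filter, and between 0 and 8 with 1 library left out. With 1 fit on all 16 libraries Pck1 no longer passed against chow in the ketogenic-alternating group, and Pdha1 did. The 58 fold changes with an unadjusted p below 0.05 in the main fit were followed through 15 alternatives. Of the 870 values 124 passed, and for the 10 calls 98 of 150 did. The sign was kept in 866 of 870, which is weak support because the alternatives refit largely the same libraries. The 4 that turned did so with the covariate: Pck1 (-0.20), Pcx (-0.16) and Creb3l3 (-0.0394) between ketogenic-alternating and high-fat, and Fbp1 (-0.0518) between the alternating groups. The labels link same-numbered libraries by a number only, and whether they shared a batch is not stated. Their deviations from the group means correlated between -0.596 and 0.404 in 24 pairs, 4 of them over 0.1. With the replicate block 3 members passed between the alternating groups (Mfsd2a, Ldha and Gys2), 1 between chow-alternating and chow (Mfsd2a), 4 between ketogenic-alternating and chow, and 3 in the F test, where Slc2a2 remained and Pck1 and Mfsd2a took the place of Pcx (adjusted p = 0.0671) and Pfkfb1 (adjusted p = 0.0511). Depth is unknown, and 4 libraries per group limit the precision.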
